A study of Mus musculus with 2 samples.

Results

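Bidirectional promoter long noncoding RNAs (lncRNAs) are transcripts that start at the promoter of a protein-coding gene and run away from it on the opposite strand. In nuclear RNA of macrophages, 67 such genes were measured, of 201 genes whose annotation holds a transcript of this type and no protein-coding, lincRNA or antisense transcript. The limit was a mean expected count of at least 10 over both libraries, where an expected count is an estimated number of reads. None of the 201 was removed by symbol. The other 134 lay under the limit, 58 of them at a count of 0 in both libraries. The tables list 55536 genes in all, and 15431 reached the same limit. The genes were thus chosen by their expected counts in these libraries, and their levels are given as a description.

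The cells were bone-marrow-derived macrophages of C57BL/6J mice, and the libraries held ribosome-depleted total RNA of a fraction labelled nucleoplasmic in the description and nuclear in the source. All cells had a first exposure of 12 h to 100 ng/ml Lipid A, a washout of 12 h and a second exposure of 10 min at the same 100 ng/ml. Lipid A, the membrane anchor of bacterial lipopolysaccharide, activates the receptor TLR4. The only group was 2 biological replicates of this condition, from 500 ng of RNA in replicate 2 and 1 µg in replicate 1. They carry 1 donor identifier, and the labels do not say that they came from separate animals or cultures, so differences between them may be technical. The depth, as the sum of expected counts over all genes, was 18051097 for replicate 2 and 24444219 for replicate 1. All 12 of 12 macrophage markers were detected, and no marker listed for B cells, T cells, neutrophils, erythroid cells or fibroblasts was, their sums staying at or below 1.09 TPM (a level scaled by transcript length and by the library's total) in either library.

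RNA polymerase II initiates in both directions at most mammalian CpG-rich promoters. Transcription towards the gene is stabilised by splicing and by U1 snRNP, which blocks early polyadenylation signals. Upstream transcription usually ends early and is degraded in the nucleus by the RNA exosome, brought there by adaptors such as the NEXT complex and the PAXT connection. Some upstream transcripts are spliced or escape decay and are annotated as lncRNA genes, and RNA of the nucleus is the compartment in which they are usually found.

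Head-to-head arrangement with a protein-coding gene is what the annotation class is named for, and 65 of the 67 genes had a protein-coding start on the other strand within 1000 bases, each with a different partner. In 56 pairs the starts were separated by a gap with a median of 99 bases and a range of 4 to 704 bases. In the other 9 pairs the genes overlapped at their starts by 66 to 838 bases. The same search found a partner for 18.8% of 500 lincRNA genes and for 36.6% of 718 antisense genes at the same count limit. Gaps of 50 to 150 bases were found in 30 of the 65 pairs (46.2%), against 27.7% of the lincRNA pairs and 23.6% of the antisense pairs. Gm47126, whose nearest divergent start (Ano10) was 1488 bases away, and Gm9920, whose start lay 1036 bases inside Deptor, were the 2 exceptions. The annotation is uneven along the genome, with only 3 of the 201 genes on chromosomes 1 to 5, X and Y and no measured gene there. Chromosome 12 held 10 of the 67 and chromosome 8 held 8.

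**Figure D1:**
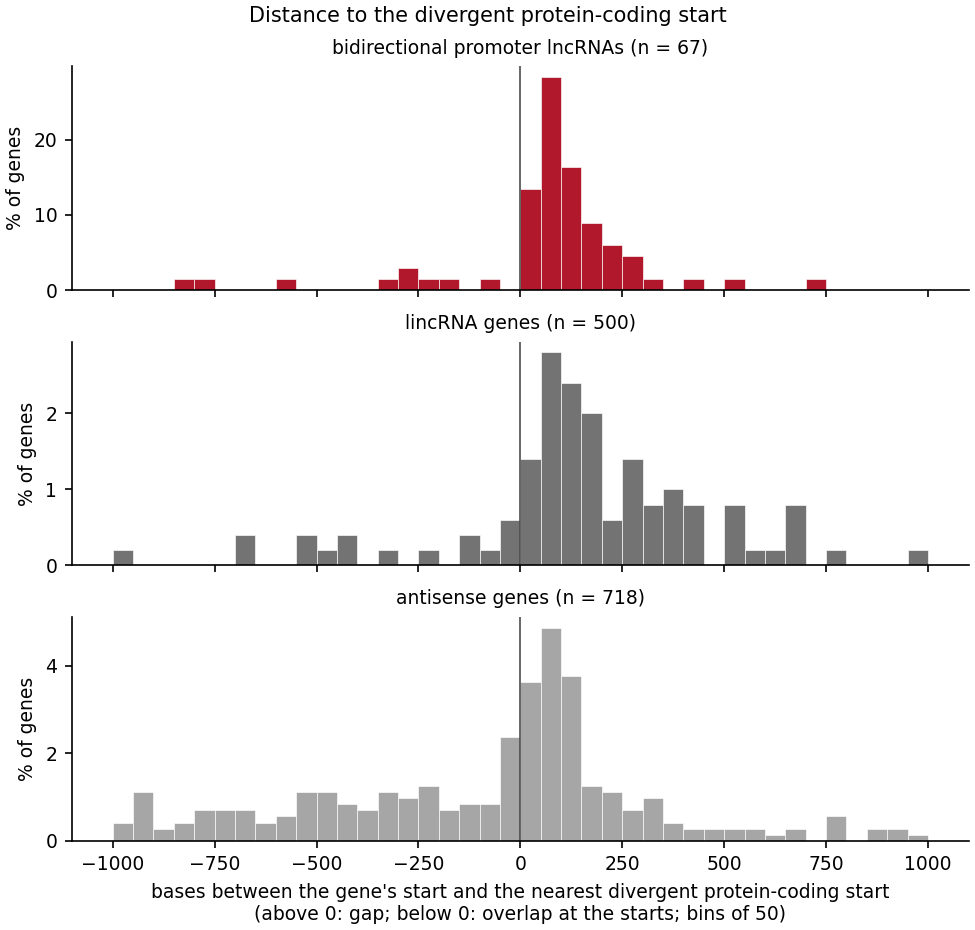
Percent of genes (vertical axes, on different scales) by the distance in bases between their start and the nearest divergent protein-coding start (horizontal axis, bins of 50), for the 67 bidirectional promoter lncRNAs, 500 lincRNA genes and 718 antisense genes. Values above 0 are gaps and values below 0 are overlaps at the starts. Of the 65 lncRNA pairs, 30 (46.2%) lie at gaps of 50 to 150 bases, against 27.7% of lincRNA pairs and 23.6% of antisense pairs.

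The shared promoters can be read in RefSeq windows of the assembly GRCm38.p6 that run from 250 bases before a start to 50 after it. By symbol 36 of the 67 genes and 55 partners had one, and 29 lncRNA windows and 44 partner windows whose start lay within 150 bases of the annotated one were used. The start of the other gene of the pair lay inside 23 of the 29 lncRNA windows. 5 windows are shown, 3 of lncRNAs among the highest in level and 2 of immune partners whose lncRNA had no entry. Numbers of matches cover both strands, and in each window only the motifs named with it are in capitals.

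The first is the strand of A930037H05Rik at chr11:119491186-119491485 (minus strand), in which the start of the partner Endov is at position 139. The capitals mark the ETS family motif CCGGAA, which occurs 1 time, on the other strand.
A930037H05Rik: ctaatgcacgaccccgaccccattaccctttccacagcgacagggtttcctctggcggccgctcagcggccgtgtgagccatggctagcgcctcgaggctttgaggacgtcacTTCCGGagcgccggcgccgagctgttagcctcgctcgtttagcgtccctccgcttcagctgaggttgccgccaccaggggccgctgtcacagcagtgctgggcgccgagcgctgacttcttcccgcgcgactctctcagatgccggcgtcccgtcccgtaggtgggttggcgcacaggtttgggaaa
In the window of 4632427E13Rik at chr7:92741410-92741709 (minus strand), the start of Rab30 is at position 107. The capitals mark 1 match each of the SP1 family motif GGGCGG, the NF-Y motif CCAAT and the YY1 motif ATGGCG.
4632427E13Rik: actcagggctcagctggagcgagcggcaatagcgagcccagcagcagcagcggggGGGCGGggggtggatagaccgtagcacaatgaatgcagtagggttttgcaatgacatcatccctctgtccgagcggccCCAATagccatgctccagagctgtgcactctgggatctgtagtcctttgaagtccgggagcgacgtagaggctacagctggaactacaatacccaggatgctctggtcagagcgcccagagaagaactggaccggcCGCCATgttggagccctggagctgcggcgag
In the window of BC051226 at chr17:33909129-33909428 (minus strand), the start of Daxx is at position 15, and 5 matches to these 4 motifs are in capitals, with 2 overlapping copies of GGGCGG.
BC051226: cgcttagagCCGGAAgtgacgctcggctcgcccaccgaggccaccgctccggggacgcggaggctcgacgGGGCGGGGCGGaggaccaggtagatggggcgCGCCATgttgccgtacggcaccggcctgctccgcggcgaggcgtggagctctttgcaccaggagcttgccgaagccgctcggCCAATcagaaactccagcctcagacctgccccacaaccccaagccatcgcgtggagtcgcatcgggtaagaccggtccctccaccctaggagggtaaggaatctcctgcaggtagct
The window of Nfkb2 at chr19:46305445-46305744 (plus strand) holds the start of the lncRNA AC114539.1 at position 167. The capitals mark an exact match to the NF-κB consensus of 10 letters, which 0.155% of all 32851 RefSeq promoter windows held.
Nfkb2: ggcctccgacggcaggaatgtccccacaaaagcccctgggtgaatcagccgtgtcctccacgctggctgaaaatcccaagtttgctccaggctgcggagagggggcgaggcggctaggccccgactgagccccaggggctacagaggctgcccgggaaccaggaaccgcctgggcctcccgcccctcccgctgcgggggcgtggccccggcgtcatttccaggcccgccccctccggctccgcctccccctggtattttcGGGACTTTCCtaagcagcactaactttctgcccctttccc
The window of Ddx60 at chr8:61927837-61928136 (plus strand) holds the start of the lncRNA Gm45418 at position 192. The capitals mark CCAAT and the TATA box motif TATAAA.
Ddx60: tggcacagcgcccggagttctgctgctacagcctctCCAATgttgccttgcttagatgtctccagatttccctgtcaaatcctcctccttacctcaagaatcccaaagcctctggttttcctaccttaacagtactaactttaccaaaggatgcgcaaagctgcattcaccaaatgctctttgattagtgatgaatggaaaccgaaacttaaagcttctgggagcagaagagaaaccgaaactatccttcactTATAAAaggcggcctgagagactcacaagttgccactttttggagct

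The lncRNA windows were rich in G, C and CpG. Their median GC content was 67.7% and their median number of CpG dinucleotides was 30, against 52.7% and 7 in all 32851 windows. A GC content of at least 50% with an observed over expected CpG ratio of at least 0.6 was met by 26 of 29 lncRNA windows and 40 of 44 partner windows, against 33.5% of all windows. GGGCGG was found in 62.1% of the lncRNA windows, against 35.7% of all. CCGGAA was found in 31.0% against 14.9% of all, and ATGGCG in 27.6% against 8.93%. CCAAT stood at 37.9% against 37.4%. TATAAA was found in 1 window, 3.45% against 13.6% of all. No lncRNA window held the NF-κB, NRF1 or interferon response (ISRE-like) string of 10 letters. Each was searched as 1 exact string, and other forms of these motifs were not searched. Whether the window of Ddx60 holds another form of the interferon response motif was thus not tested. The CREB motif TGACGTCA was found in 1 lncRNA window, 3.45% against 1.79% of all, and the AP-1 motif TGACTCA in 2, 6.90% against 5.20%. Among partner windows, GGGCGG was found in 75% and CCGGAA in 43.2%. Windows of a pair overlap, and motif shares move with base composition, which was not matched. Of the windows shown, that of Ddx60 had the lowest GC content, 46%, with 6 CpG and a TATA box.

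As a group the 67 genes were low. Their median was 1.27 TPM in replicate 2 and 1.20 TPM in replicate 1, which averages 1.24 ± 0.0495 TPM (SD, n = 2). lincRNA genes at the same count limit had medians of 1.02 and 0.99 TPM, antisense genes 1.13 and 1.04 TPM, and all 15431 genes 4.26 and 3.63 TPM, in the same order of replicates. At a TPM of at least 1 and a count of at least 10 in both libraries, 33 of the 67 were detected (49.3%), against 73.4% of all genes at the limit, 43.2% of lincRNA and 44.3% of antisense genes. By mean TPM, 9 genes stood at 5 or more, 31 between 1 and 5 and 27 under 1, with a range of 0.19 to 45.0. All 67 together held 0.0615% of gene counts in replicate 2 (exact Clopper-Pearson 95% interval 0.0604% to 0.0627%, for counting error only) and 0.0674% in replicate 1 (0.0664% to 0.0684%).

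**Figure D2:**
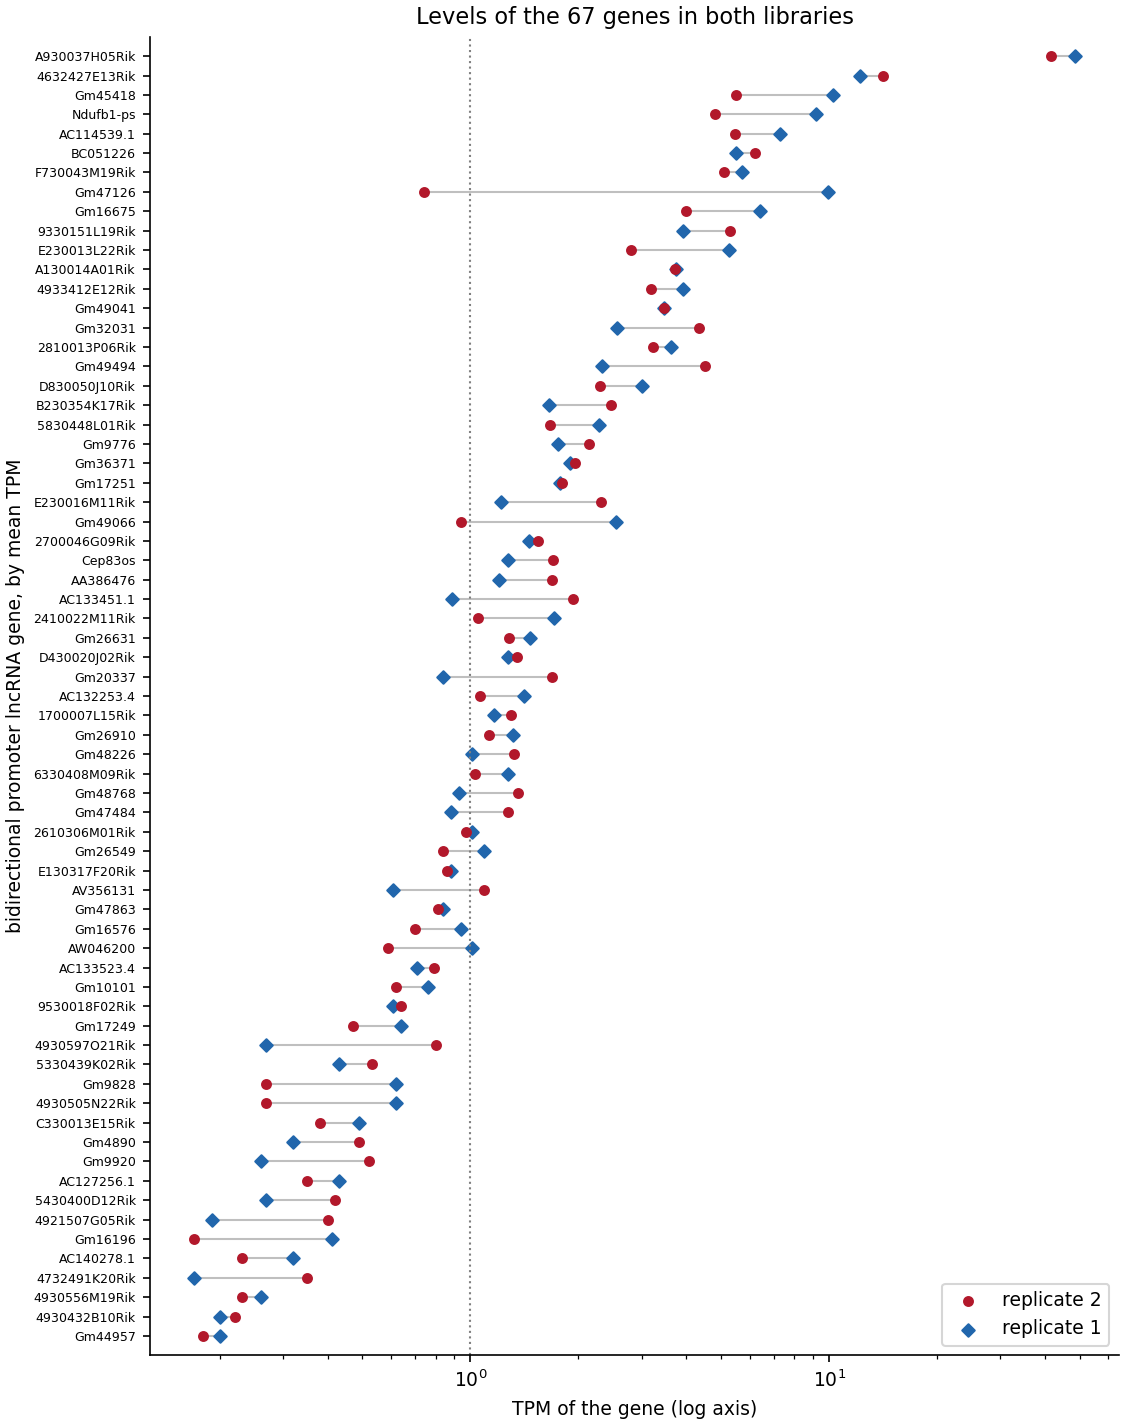
TPM (horizontal log axis) of each of the 67 bidirectional promoter lncRNA genes (rows, ordered by mean TPM) in replicate 2 (circles) and replicate 1 (diamonds), joined by a grey line. The dotted line is 1 TPM. A930037H05Rik and 4632427E13Rik lie above 10 TPM in both libraries, and most other genes lie between 0.2 and 5 TPM.

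A930037H05Rik (ENSMUSG00000109408.1, chr11:119448788-119491298, minus strand), which starts 49 bases from Endov, the inosine-specific endonuclease V, had 41.6 TPM in replicate 2 and 48.4 TPM in replicate 1. It was far above every other member in both libraries and took 42.4% and 46.1% of the group's counts. Its annotated exons lie for 93.5% of their 9082 bases within the span of Rnf213 on the opposite strand, an interferon-inducible ubiquitin ligase gene that stood at 442.5 and 480.2 TPM, and 1476 of these bases are also exonic in Rnf213. A retained-intron transcript that lies wholly in that span held 51.0% and 45.3% of the gene's TPM, and a transcript of the bidirectional type with 93.2% of its bases there held 47.5% and 44.9%. The transcripts with no or about 54% of their bases in that span held 1.13% and 1.34% in all. The log2 ratio of replicate 2 over replicate 1, from normalised counts, was -0.41 for A930037H05Rik (95% counting interval -0.47 to -0.36) and -0.44 for Rnf213. Strandedness is not given in the sources used here, and none of the 4 coverage files named in the deposited file lists is named for a strand. Reads from both genes therefore cannot be told apart here, and the part of Rnf213 reads in the level of A930037H05Rik was not tested.

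4632427E13Rik (ENSMUSG00000074024.5, chr7:92734166-92741468, minus strand) had 14.2 TPM in replicate 2 and 12.2 TPM in replicate 1, from 1803 and 2343 counts. No base of its exons lies within an annotated gene of the opposite strand. Its promoter partner Rab30, a small GTPase of the Golgi, had 0.00 and 0.02 TPM, from 1 and 8 counts. The lncRNA was thus the abundant transcript of this promoter in both libraries. In the second quantification, made directly from reads, 4632427E13Rik had 7.48 and 4.40 TPM and Rab30 0.0884 and 0.140 TPM. The log2 ratio between the libraries was -0.10 (95% counting interval -0.19 to -0.01). 2 transcripts of 6559 and 3811 bases carried most of it, the first with 36.2% and 44.9% and the second with 45.0% and 49.3% of its TPM.

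Of the next genes by level, Gm45418 (chr8:61921746-61928028), divergent to the interferon-induced helicase gene Ddx60, had 5.49 TPM in replicate 2 and 10.2 TPM in replicate 1, from 53.7 and 113 counts. Ddx60 had 140.9 and 139.8 TPM, so the partner was well above the lncRNA in both. Of the 649 exonic bases of Gm45418, 325 are shared with exons of 4930512H18Rik, an antisense gene on the opposite strand. That gene had 5.66 and 7.12 TPM, and its part in the level of Gm45418 was not tested. In the second quantification Gm45418 had 10.03 and 10.00 TPM, with a log2 ratio of normalised counts of -0.65. AC114539.1 (chr19:46303591-46305611), divergent to Nfkb2, which encodes the p100 precursor of the NF-κB subunit p52, had 5.48 and 7.29 TPM, and Nfkb2 had 13.5 and 16.2 TPM. This pair shares 531 exonic bases on opposite strands. BC051226, divergent to the histone H3.3 chaperone gene Daxx, had 6.23 and 5.49 TPM against 73.7 and 115.8 TPM for Daxx. F730043M19Rik, divergent to Atxn7l1, had 5.10 and 5.70 TPM against 33.8 and 26.7 TPM for the partner. Gm16675 (chr8:46668808-46739515), divergent to Irf2, an interferon regulatory factor that can oppose Irf1, had 4.0 and 6.43 TPM against 36.7 and 40.2 TPM for Irf2, with no base in a gene of the opposite strand. Each of these 5 genes lay below its partner in both libraries.

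Ndufb1-ps, between Gm45418 and AC114539.1 in mean TPM and divergent to the polyadenylation factor gene Cpsf2, had 4.82 TPM in replicate 2 and 9.22 TPM in replicate 1. Its symbol marks a pseudogene of a complex I subunit, and reads it may share with that gene were not separated here. Gm47126 had 0.74 and 9.91 TPM from only 1.22 and 26.4 counts. Its 269 exonic bases lie wholly within the lincRNA gene Gm26797 on the opposite strand, and the libraries disagreed more here than for any other member. E230013L22Rik, which overlaps the start of the phagosomal GTPase gene Rab20, had 2.80 and 5.25 TPM. A130014A01Rik, divergent to the palmitoyltransferase gene Zdhhc7, had 3.72 and 3.73 TPM. It lies wholly within the span of Gm20388, an annotated protein-coding gene of the same strand at 9.43 and 9.06 TPM, though the exons share no base.

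Part of the group overlaps other genes, and the share of such genes outside the group was not computed. Exonic bases were shared with a gene of the opposite strand by 33 of the 67 genes and with a gene of the same strand by none. In 11 genes more than 50% of the exonic bases lay within opposite-strand genes, and in 33 genes none did. The median over these 33 was 1.11 TPM, averaged over replicates. Expected counts were whole numbers, within 0.005, in both libraries for 47 of the 67 (70.1%), against 71.5% of all genes at the limit, and in these no fraction of a read is visible in the count.

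Most lncRNAs lay well below the gene on the other side of their promoter. The median log2 ratio of lncRNA TPM over partner TPM, with 0.1 TPM added to each, was -2.96 in replicate 2 and -2.53 in replicate 1. These 2 medians had an SD of 0.30. With each pair's ratio first averaged over both libraries, the median over pairs was -2.83. The partners' median was 9.88 and 8.07 TPM, and 60 of 65 partners were detected. In 25 pairs the lncRNA was under 10% of the partner in mean TPM, a share not computed for lincRNA and antisense pairs. The medians of the other classes were -3.06 for 94 lincRNA pairs and -2.83 for 263 antisense pairs. In the 33 pairs whose lncRNA has no base within an opposite-strand gene the median was -3.13.

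**Figure D3:**
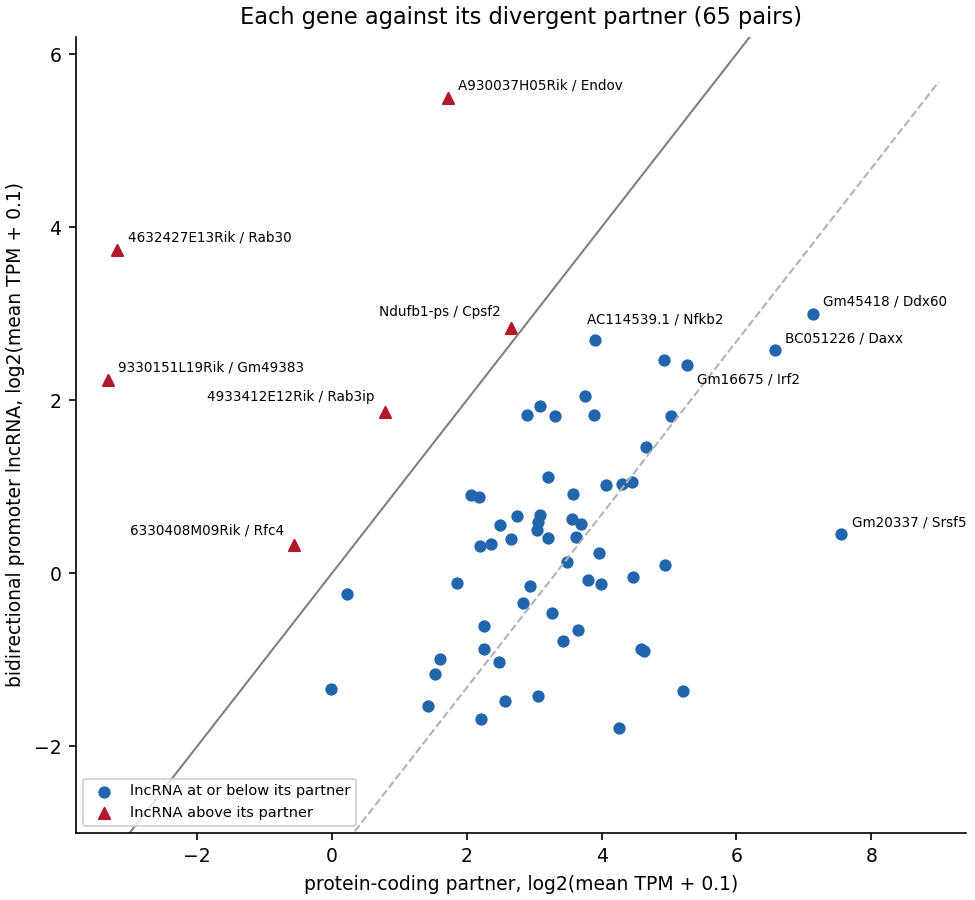
log2(mean TPM + 0.1) of each bidirectional promoter lncRNA (vertical axis) against that of its divergent protein-coding partner (horizontal axis) for 65 pairs. The solid line is equality and the dashed line a level 10 times lower. Triangles mark the 6 lncRNAs above their partner, and 25 of the others are under 10% of it in mean TPM.

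The lncRNA was above its partner in mean TPM in 6 of 65 pairs (9.23%), against 14.9% of lincRNA and 12.9% of antisense pairs, and in 5 of them in both libraries. A930037H05Rik over Endov (3.50 TPM in replicate 2 and 2.87 in replicate 1) and 4632427E13Rik over Rab30 had the highest lncRNA levels among these. 4933412E12Rik had 3.18 and 3.91 TPM, against 1.65 and 1.59 TPM for its partner Rab3ip, an exchange factor for the GTPase Rab8. Of its exonic bases, 85.9% lie within genes of the opposite strand. 6330408M09Rik had 1.03 and 1.27 TPM, against 0.72 and 0.44 TPM for Rfc4, a subunit of the replication clamp loader. The second quantification turned this order, with 0.544 and 0.430 TPM for 6330408M09Rik, against 1.42 and 1.32 TPM for Rfc4. 9330151L19Rik had 5.30 and 3.91 TPM, and its partner Gm49383, a predicted protein-coding gene, was listed at 0 in both. All its exonic bases lie within Gm49384 on the opposite strand, at 0.70 and 0 TPM, and 1107 are shared with exons of Dnaaf2, at 0.74 and 1.05 TPM. Ndufb1-ps, at 4.82 and 9.22 TPM, was below Cpsf2 (6.52 and 5.89 TPM) in replicate 2 and above it in replicate 1. Of the exonic bases of Ndufb1-ps, 48.5% lie within Cpsf2 on the opposite strand, and 147 are shared with exons of Cpsf2. The part of Cpsf2 reads in the level of Ndufb1-ps was not tested. In the second quantification Ndufb1-ps was above in both, at 3.88 and 4.70 TPM, against 3.50 and 2.18 TPM for Cpsf2. Of the 6 pairs, 5 kept the lncRNA above its partner in mean TPM there.

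At the other end were 5 lncRNAs, beside the splicing factor genes Srsf5 and Srsf3 and beside March8, Btf3 and Dazap2. Low ratios were not general beside genes that act on RNA, whose pairs had a median of -2.55, against -2.83 over all pairs. Gm20337 had 1.69 TPM in replicate 2 and 0.84 TPM in replicate 1, against 213.0 and 163.5 TPM for Srsf5, a log2 ratio of -7.17 ± 0.39 (SD, n = 2). Gm16196 had 0.17 and 0.41 TPM, against 39.8 and 34.1 TPM for Srsf3, a log2 ratio of -6.64 ± 0.81. Both partners encode SR proteins, which bind exonic splicing enhancers. Gm44957 had 0.18 and 0.20 TPM, against 20.0 and 18.2 TPM for the membrane ubiquitin ligase gene March8. Gm9828 had 0.27 and 0.62 TPM, against 27.5 and 20.4 TPM for Btf3, and C330013E15Rik had 0.38 and 0.49 TPM, against 28.3 and 20.8 TPM for Dazap2. All 5 lncRNAs were below 2 TPM in both libraries. Across the 65 pairs the level of the lncRNA had little relation to that of the partner, with a Spearman rho of 0.18 and a Pearson r of 0.01 on the log2 scale, both over mean TPM of the same libraries. The lncRNAs had to pass a count limit and the partners did not, which narrows the range of the lncRNAs. The partners Rab30 and Gm49383 had 0.01 and 0 TPM, beside lncRNAs of 13.2 and 4.605 TPM. Correlations without these pairs were not computed.

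The partners fall into several functions, grouped here after the genes were known. In 15 pairs the partner acts in chromatin or transcription, such as Kdm7a, Ing2 and Ankrd11. Their lncRNAs had medians of 1.30 TPM in replicate 2 and 1.20 TPM in replicate 1, against 14.5 and 10.3 TPM for the partners. In 7 pairs the partner is a signalling gene, such as Ddx60, Nfkb2, Irf2 and Map3k4, with lncRNA medians of 2.29 and 3.01 TPM against 13.5 and 16.2 TPM. In 9 pairs it acts in vesicle traffic, with lncRNA medians of 1.80 and 1.75 TPM against 11.4 and 10.6 TPM, and in 7 it acts on RNA, with 1.93 and 0.89 TPM against 10.2 and 8.07 TPM. 7 cell division and DNA repair partners came with lncRNA medians of 1.35 and 1.27 TPM against 6.82 and 6.35 TPM. 4 pairs with a partner in glycan or lipid synthesis had lncRNA medians of 1.0 and 0.97 TPM against 9.22 and 6.23 TPM, and the 16 pairs with other partners 0.575 and 0.665 TPM against 5.88 and 4.805 TPM. The median log2 ratio of lncRNA over partner was -3.20 in the signalling pairs, -3.04 in the chromatin pairs, -2.73 in the glycan and lipid pairs, -2.71 in the traffic pairs, -2.68 in the other pairs, -2.55 in the RNA pairs and -2.26 in the division pairs, all within the range of single pairs in each group.

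Nfkb2, Irf2 and Map3k4, a kinase upstream of p38 and JNK, matched the list of immune and inflammatory symbols, and Cdc5l, a spliceosome subunit, matched it by its first letters alone. Ddx60 is not on that list. 4732491K20Rik, divergent to Map3k4, had 0.35 TPM in replicate 2 and 0.17 TPM in replicate 1, against 6.72 and 4.90 TPM for Map3k4. B230354K17Rik, divergent to Cdc5l, had 2.47 and 1.66 TPM, against 10.2 and 8.07 TPM for Cdc5l. No cytokine or chemokine gene was among the 65 partners.

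Between the libraries, ratios of the group lay more often below 0 than above it. The median log2 ratio of replicate 2 over replicate 1 was -0.26, on TMM-normalised counts with 0.5 added, against 0.00 for all genes, -0.10 for lincRNA and -0.12 for antisense genes. The ratio was below 0 for 46 of the 67, against 50% of all genes, 282 of 500 lincRNA genes and 415 of 718 antisense genes. Genes of like length, between 1004 and 2422 bases, had a median of -0.04. The shift was not particular to the group, since the 12 macrophage markers had a lower median, -0.41. The 34 detected genes of RNA termination and decay factors had a median of -0.01. For 22 of the 67 (32.8%) the 95% counting interval lay below 0, against 25.8% of all genes, for 5 (7.46%) above it, against 23.9%, and for 40 it held 0. At a mean count of at least 50 the median was -0.28. The replicates differ in RNA input, 500 ng in replicate 2 against 1 µg in replicate 1, and its part in this difference was not tested. In bulk RNA, fewer cells with a transcript and less of it per cell cannot be told apart.

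Past 2-fold were 8 of the 67 (11.9%), 1 higher and 7 lower in replicate 2, against 8.46% of all genes in either direction, 3.07% higher and 5.39% lower. Of lincRNA and antisense genes at the same limit, 16.6% and 17.0% were past 2-fold in either direction, larger shares than in the group. At a mean count of at least 50 the shares were 4.05% of all genes, 6.96% of lincRNA genes and 9.25% of antisense genes. In the group it was 2 of 36 genes (5.56%). These were E230013L22Rik, with 127 counts in replicate 2 and 341 in replicate 1 and a log2 ratio of -1.15 (-1.46 to -0.85 as its 95% interval from counting), and Ndufb1-ps, with 72 and 180 counts and a log2 ratio of -1.04 (-1.46 to -0.65). 2410022M11Rik (49 and 115 counts), Gm16675 (129 and 301) and AW046200 (37 and 83) had log2 ratios of -0.95, -0.95 and -0.88. E230016M11Rik, with 100.0 and 66.2 counts, had the largest positive ratio at that depth, 0.87 (0.41 to 1.35). Gm47126 was lowest of all at -3.92, with an interval of -9.78 to -1.82 that reflects its few reads.

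**Figure D4:**
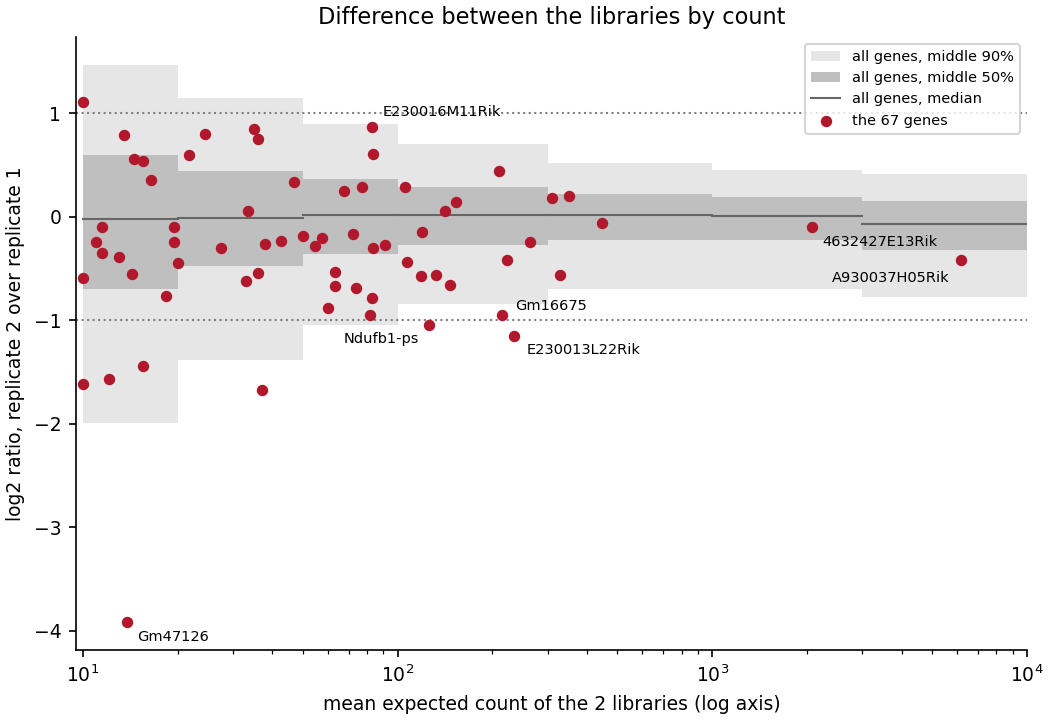
log2 ratio of replicate 2 over replicate 1 (vertical axis) against the mean expected count (horizontal log axis) for the 67 genes (points). Grey bands give the middle 90% and the middle 50% of all genes in 7 ranges of count, the grey line their median, and the dotted lines a 2-fold difference. More points lie below 0 than above it, 46 against 21.

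Some partners differed between the libraries by about as much as their lncRNA. E230013L22Rik and Rab20 had log2 ratios of -1.15 and -1.03, E230016M11Rik and Gadd45a, a stress-induced gene of growth arrest, 0.87 and 0.80, and AC114539.1 and Nfkb2 -0.56 and -0.59. Each of these 3 pairs shares exonic bases, 356, 337 and 531 of them, and the part of shared reads in these ratios was not tested. Among pairs without shared exonic bases, Gm16675 and Irf2 had -0.95 and -0.37, Gm45418 and Ddx60 -0.79 and -0.23, and BC051226 and Daxx -0.30 and -1.05. Gm45418 does share 325 exonic bases with another gene, 4930512H18Rik, whose ratio was -0.58. 2410022M11Rik and Zmym5, also without shared bases, had -0.95 and 0.34, opposite in sign. AW046200 and Galnt7, an O-glycosylation enzyme gene, share 98 exonic bases and had -0.88 and 0.25. Over the 63 pairs with both genes at a mean count of at least 10, Pearson r was 0.22 and Spearman rho 0.27, and 41 pairs had ratios of the same sign. Over the 34 pairs with a lncRNA at a mean count of at least 50 and a partner at 10 or more, Pearson r was 0.37 and Spearman rho 0.33, and 24 pairs shared the sign. The median ratio of these lncRNAs was -0.29, against -0.04 for their partners.

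**Figure D5:**
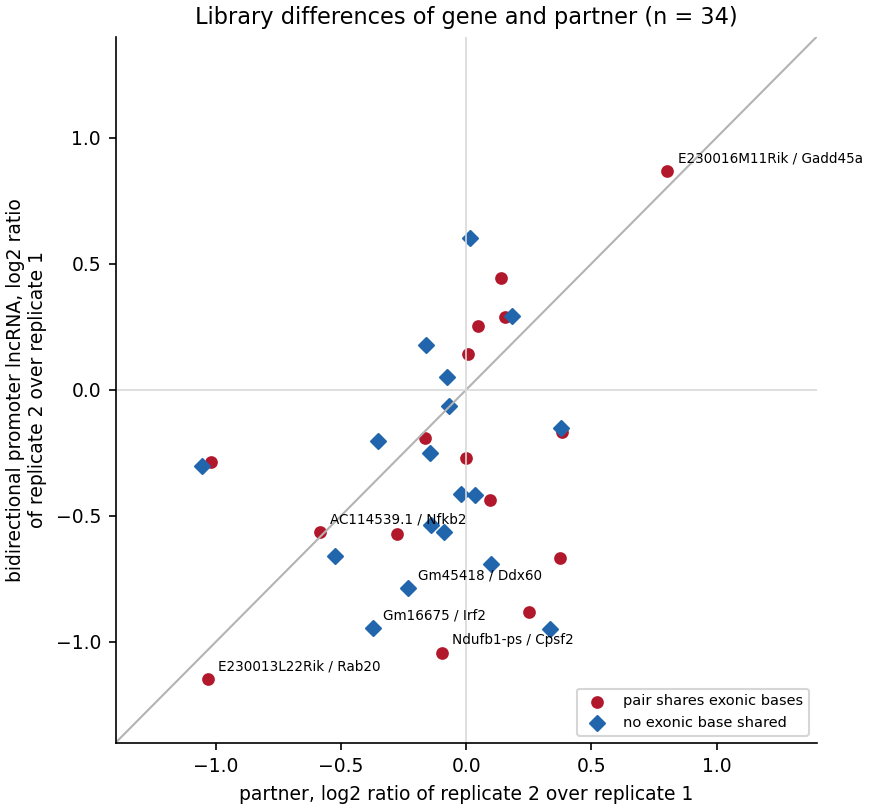
log2 ratio of replicate 2 over replicate 1 for each bidirectional promoter lncRNA (vertical axis) against that of its partner (horizontal axis), for 34 pairs with a lncRNA at a mean count of at least 50 and a partner at 10 or more. Circles are pairs that share exonic bases, diamonds pairs that do not, and the grey diagonal is equality. The pairs E230013L22Rik with Rab20, E230016M11Rik with Gadd45a and AC114539.1 with Nfkb2 lie near the diagonal.

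RNAs of the factors that terminate and degrade upstream transcripts were present in both libraries. Of 35 listed genes that were found, 34 were detected, with a median of 9.27 TPM in replicate 2 and 7.60 TPM in replicate 1, and none of the 34 was past 2-fold between the libraries. Zfc3h1, the scaffold of the PAXT connection, had 47.8 and 30.7 TPM, the exosome helicase gene Mtrex 13.0 and 9.06 TPM, the NEXT subunit genes Zcchc8 and Rbm7 21.04 and 14.2 TPM and 23.8 and 22.3 TPM, and the nuclear exosome nuclease gene Exosc10 10.2 and 7.44 TPM. Exosc6, an exosome core subunit, was listed at 0 in both. The lncRNA group's median was below that of the machinery in both libraries, and also below that of all protein-coding genes at the limit, 6.14 and 5.21 TPM. Decay of these lncRNAs was not tested. Of 14 known lncRNA genes found, 9 were detected, and Neat1, the scaffold of paraspeckles, stood at 951 and 756 TPM, above every gene of the group.

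Of the 67 genes, 37 had 1 annotated transcript and 30 had several, 127 transcripts in all with at most 6 in a gene. The median share of a gene's TPM in transcripts of the bidirectional type was 100% in both libraries, a value that the choice of genes fixes, since genes with 1 transcript make up most of them. In 25 of the 30 genes with several, the leading transcript was the same in both. Gm16675 carried 94.9% and 94.0% of its TPM in 1 transcript. Gm45418 did not keep its leader, with 73.7% in a transcript of 649 bases in replicate 2 and 54.6% in one of 361 bases in replicate 1.

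The second quantification gave lower TPM for the group, as it did over all genes, with a median of mean TPM of 0.903 in the group. Its estimated counts were lower than the expected counts for only 1 of the 67. The median log2 ratio of its TPM over that of the gene tables was -0.51 in the group and -0.67 over all genes, and 57 of the 67 lay within 1 log2 unit of the group's shift, with a Spearman rho of 0.84 between both sets of levels. At a mean count of at least 50 the largest differences were those of 4632427E13Rik at -1.14, Gm48226 (divergent to the gephyrin gene Gphn) at -1.12 and D430020J02Rik (divergent to the condensin subunit gene Ncapg2) at -1.10. Gm10101 and Gm49494, singled out after their values were seen, went the other way at 1.01 and 0.85.

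Next to the count limit, C330013E15Rik (7 counts in replicate 2 and 13 in replicate 1), 4930597O21Rik (13 and 7) and 4930505N22Rik (4 and 16) lay just inside at a mean of 10. Just outside were Gm16998 (11 and 8.15 counts, a mean of 9.57) and Gm47884 (8 and 11, a mean of 9.5). The genes on either side of the limit thus differed by less than 1 count in the mean.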

How the data were processed

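Per the file headers and the deposited file lists, the authors derived the gene tables and a first set of transcript tables from an alignment to the transcriptome (mm10, GENCODE M21). These hold, as deposited, an expected count (estimated reads), a TPM and, per transcript, the percent of its gene's TPM. A second deposited transcript table holds estimated counts and TPM made directly from reads, summed here per gene. For quantifier, aligner and strandedness the entry is: not given in the sources used here. Entries that name no gene held 0.245% of counts in replicate 2 and 1.06% in replicate 1 and were left out.

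Counts were rounded and normalised by TMM in edgeR 4.0.16 over the 15439 genes whose rounded counts averaged 10 or more (factors 1.06 in replicate 2 and 0.945 in replicate 1), with size factors of DESeq2 1.42.0 as an alternative. With 1 group no contrast of conditions exists, so no p-value is given. The genes, lists and comparisons were chosen with earlier results of these data known. Genes were named by rank: the 12 highest in TPM, 6 largest ratios between libraries and 3 between quantifications (mean count of at least 50), 5 highest and 5 lowest against the partner, those with partners on the immune list and those at the count limit. A partner is the nearest protein-coding start on the other strand, head to head, within 1000 bases. Motif matches and summaries were computed in Python 3.11.15, and partner functions were assigned by hand after the genes were known. Intervals cover counting error only.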

Additional observations from a re-analysis of the deposited data

How the results depend on the processing

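No paired analysis was possible because the series holds a single group. Leaving out a replicate was possible for levels, pairs and shares, but not for the ratio between libraries. Detection was then asked in 1 library only, against 33 genes detected in both. Single genes could rest on 1 replicate. Replicate 1 alone carried Gm47126 past the count limit and put Ndufb1-ps above Cpsf2 in mean TPM. Leaving 1 replicate out, the median TPM of the 67 genes ranged from 1.20 to 1.27, the number detected from 38 to 39, the median log2 ratio to the partner from -2.96 to -2.53, the pairs with a higher lncRNA from 5 to 6 and the share of counts from 0.0615% to 0.0674%. The median share of TPM in bidirectional transcripts is fixed at 100% by the choice of genes and says nothing about stability. The second quantification gave a median of 0.881 TPM, 5 genes past 2-fold and a median log2 ratio to the partner of -2.31. A mean count of at least 50 left 36 genes, all 36 with a partner, a median of 1.89 TPM, 2 genes past 2-fold and a ratio to the partner of -2.49. Adding 1 TPM in place of 0.1 gave -2.18. Genes with no shared exonic base had a median of 1.15 TPM, and 42 pairs shared none. The median ratio between libraries was -0.10 on total counts and -0.030 on TPM, with 4 genes past 2-fold on TPM. The median of all genes moved to 0.16 and 0.23 there. Relative to all genes the group lay between -0.28 and -0.25 under every setting run. Total counts, DESeq2 size factors and TMM without a count filter change only the library scaling, which shifts all genes nearly alike. Their agreement was thus fixed in advance and says nothing about stability. Chosen after seeing the data, the genes with no base inside an opposite-strand gene had a median of 1.11 TPM and 2 of 33 pairs with a higher lncRNA, and without A930037H05Rik the share of counts was 0.0359%. Neither the median ratio between libraries nor that to the partner changed sign under any setting run. Of the 52 values under alternatives, 36 stayed close to the main value, those fixed ones included. Close meant within the SD of the 2 replicates or, for numbers of genes or pairs, within 1.5 times. For the ratio between libraries it meant within the counting error of the summed counts. With 1 of 2 replicates left out, the median TPM and the share of counts are close by construction. Where values moved, the cause was not tested beyond the smaller number of genes. Depth limits the 31 genes with a mean count under 50, whose ratios are uncertain.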
